A study of Arabidopsis thaliana with 24 samples.

Results

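The comparison described here is between an Arabidopsis thaliana line that carries a shortened, catalytically substituted DXO1 transgene and the wild-type accession Col-0. Its members were chosen by genotype label as the 4 libraries of that line and the 4 libraries of Col-0, which are 8 of the 24 libraries of the study. The transgene, 35S::DXO1(ΔN194/E394A/D396A), stands in the dxo1-2 mutant background, and it lacks an N-terminal stretch of the protein and has alanine at 2 catalytic residues. It is called the truncated substituted line below. The other lines, used only where a difference from them was tested or their values stand beside a result, were dxo1-2 itself, the truncated active line 35S::DXO1(ΔN194), the full-length substituted line 35S::DXO1(E394A/D396A) and the full-length active line 35S::DXO1, the last 3 also in dxo1-2. All plants were 21-day-old seedlings that had been stratified for 2 days in the cold and grown on soil under 16 h of light and 8 h of dark. Each library started from 500 ng of RNA and counted the 3′ ends of polyadenylated transcripts. The 35S promoter is a viral promoter that is active in most plant tissues, and the labels do not say how many independent lines stand for each construct or whether replicates came from separate plants. P-values here therefore measure the spread between these samples, which may be technical.

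DXO1 belongs to the DXO family of enzymes, which act on the 5′ end of RNA and remove caps that are not the usual methylguanosine, among them the NAD+ cap. The plant protein carries an N-terminal extension that its animal and fungal relatives lack, and this extension has been linked to methylation of the guanosine cap through the cap methyltransferase RNMT1. Plants without DXO1 are small and pale with activated defence genes, and the effects of the extension and of the catalytic site can be separated by lines that lack one or the other. In RNA from seedlings, fewer cells of a type and less RNA per cell of that type cannot be told apart.

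The Col-0 libraries held 1449681 to 2285751 counts and detected 17369 to 18298 genes, and those of the truncated substituted line held 1840734 to 3284497 counts and 17796 to 19247 genes. Levels are given as CPM, counts relative to the library size after TMM normalization, and genes were called with edgeR's quasi-likelihood test at an adjusted p under 0.05. Of 13592 genes tested, 2390 were higher and 1459 lower in the truncated substituted line, which is 28.3% of tested genes called in either direction, 17.6% higher and 10.7% lower. The median log2 fold change over all tested genes was 0.03. Of the called genes, 1601 rose and 799 fell by more than 2-fold, and 110 rose and 55 fell by more than 8-fold. Log2 fold changes are given ± their standard error from that fit. Genes called higher had a median exon length of 1284 bases and genes called lower one of 1906, against 1734 over all genes tested. With the trend of level on gene length taken out of each library, the higher share of called genes was 50.8% in place of 62.1%. Replicate 4 of the truncated substituted line stood apart: its genes deviated from the group mean by 0.577 (root mean square, log2) against 0.315 to 0.389 in the other 7 libraries, and its slope of level on length was -0.65 against -0.23 to 0.29. Without it, 3444 genes were called, 2111 higher and 1333 lower. Counts of list members below are given without that library, or with the length trend removed, where these move a count the text gives by over 1.5 times, and the part of both in the results was not tested.

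DXO1 (AT4G17620, chr4:9821874-9825039 on the plus strand) measured 11.8, 15.9, 19.1 and 15.5 CPM in the 4 Col-0 libraries and 7.04, 4.46, 5.93 and 3.12 CPM in the 4 libraries of the truncated substituted line. Every library of the line lay below every Col-0 library, and the log2 fold change was -1.57 ± 0.29 (adjusted p = 0.00012). The 2 groups rest on few reads, with 21 to 28 counts a library in Col-0 and 5 to 16 in the line. The level did not differ detectably from that in dxo1-2 (log2 difference 0.67, adjusted p = 0.695) and was lower than in the full-length substituted line (log2 difference -1.81, adjusted p = 1.8e-05). DXO1 measured 18.8, 21.6, 15.9 and 17.4 CPM in the libraries of the full-length substituted line and 13.4, 10.9, 12.97 and 11.3 CPM in those of the full-length active line, against 2.67, 3.33, 3.22 and 4.23 CPM in dxo1-2. All libraries of both full-length lines were above all of dxo1-2, while 5.99, 1.98, 4.41 and 5.42 CPM in the truncated active line overlapped it. The labels do not say whether each transgene carries the 3′ part that this method counts. How far the value reflects transcription of the truncated transgene was not tested.

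The annotated protein has 544 residues, so the truncation takes away 35.7% of it and leaves 350. Both substituted residues lie in coding exon 8 of 13. The coding strand around them is shown because it holds the 2 codons that the label names as changed (RefSeq annotation of TAIR10.1, chr4:9823928-9823978, plus strand, with the glutamate codon and the aspartate codon in capitals). The reference carries the codons for the residues named first in E394A and D396A.
DXO1 substituted codons: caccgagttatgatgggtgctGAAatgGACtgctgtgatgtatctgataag

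Genes named for the size of their change were picked among called genes whose groups did not overlap. Their lack of overlap is therefore no separate result. The genes with the largest rises were mostly at or near 0 counts in Col-0. SADHU3-2, a copy of the Sadhu family of short retroelements, measured 0.473, 0, 0 and 0 CPM in Col-0 and 52.3, 56.5, 47.5 and 91.2 CPM in the line, a ratio of mean levels of 391 (95% counting interval 69.97 to 15491) on 1 count in Col-0 against 551. Without Col-0 replicate 1, which held that count, Col-0 had none. It was also above its level in dxo1-2 (log2 difference 1.94, adjusted p = 0.0013), and the full-length active line had a log2 fold change of 7.95 for it. Another copy, SADHU1-1, rose from 68.1, 66.5, 76.99 and 70.5 to 131, 126, 137 and 158 CPM, and reads shared between copies of such elements leave these values uncertain. ORA47, an AP2/ERF transcription factor of the wound and jasmonate response, measured 0.473, 1.51, 3.41 and 7.17 CPM in Col-0 and 145, 132, 148 and 195 CPM in the line. Its groups were far from overlapping, and the log2 fold change was 5.63 ± 0.47 (adjusted p = 9.3e-10). It was 6.50 without Col-0 replicate 4, the highest of that group.

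Among genes with at least 100 CPM in the higher group, the largest rises were in ORA47, AT2G30766, XTH31 and DIC2. XTH31, a xyloglucan endotransglucosylase/hydrolase that remodels the cell wall, measured 14.2, 22.7, 17.7 and 22.1 CPM in Col-0 and 389, 351, 280.3 and 287 CPM in the line. DIC2, a dicarboxylate carrier of the inner mitochondrial membrane, measured 23.2, 25.7, 22.5 and 28.7 CPM and 341, 303, 296 and 429.5 CPM. Both rose without overlap, by log2 fold changes of 4.1 ± 0.22 and 3.77 ± 0.23 (adjusted p = 3.2e-13 and 6e-12). AT2G30766, which the annotation leaves uncharacterized, measured 5.203, 9.83, 8.18 and 5.97 CPM in Col-0 and 137, 146, 256 and 332 CPM in the line. Its groups were as clearly apart, with a log2 fold change of 4.92 ± 0.45. The remaining genes among the 10 largest rises were AT2G21220 (SAUR-like), AT1G47400, AT5G47610 (RING/U-box), AT4G24700, AT1G07485, the pseudogene AT5G14840 and AT1G23205 (invertase or pectin methylesterase inhibitor family), with log2 fold changes between 4.91 and 5.92. AT2G21220 and AT5G47610 each had 1 count in Col-0 in all, which gives ratios of 81.0 (interval 14.2 to 3227) and 68.2 (interval 11.95 to 2722), and these counts were in Col-0 replicates 3 and 2. Without Col-0 replicate 1 the log2 fold change of AT4G24700 was 5.86 in place of 5.18, and AT5G14840 had 6.45 in place of 4.94. Taking out the length trend gave AT1G47400 a value of 5.12 in place of 5.72.

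Within the cell wall family of XTH31, XTH25 went the other way. XTH25 measured 13.2, 21.9, 19.8 and 11.3 CPM in Col-0 and 0.8798, 1.19, 0.494 and 0.624 CPM in the line, a log2 fold change of -4.17 ± 0.41. XTH32 (1.33), XTH6 (0.66), XTH7 (0.64) and XTH28 (0.58) rose and XTH30 (-1.07) fell, all past the threshold. XTH31 was higher than in dxo1-2 (log2 difference 1.27, adjusted p = 0.00069), and XTH25 was lower than in dxo1-2 (-2.82, adjusted p = 0.0015) and than in the truncated active line (-2.65, adjusted p = 0.0023).

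The largest falls included transporters, jasmonate genes and seed storage genes. AAP2, an amino acid permease that loads amino acids into the phloem, measured 126, 107, 135 and 139.8 CPM in Col-0 and 9.68, 7.44, 10.4 and 7.49 CPM in the line (log2 fold change -3.86 ± 0.18, adjusted p = 4.4e-14). DYL1, a dormancy-associated protein, measured 116, 110.4, 216 and 156 CPM and 4.84, 2.38, 6.43 and 6.87 CPM (log2 fold change -4.94 ± 0.49), and TTL4, a tetratricopeptide-repeat thioredoxin-like protein, measured 46.4, 46.9, 47.01 and 46.6 CPM and 1.32, 2.38, 3.96 and 0.624 CPM (log2 fold change -4.41 ± 0.42). In all 3 genes the lowest Col-0 library was more than 8-fold above the highest library of the line. MAF5, a MADS-box factor of the flowering-time MAF cluster, measured 11.8, 18.9, 17.03 and 21.5 CPM in Col-0 and 0.4399, 0.298, 0.989 and 0 CPM in the line. Its log2 fold change was -5.13 ± 0.58, and it was below the truncated active line as well (log2 difference -2.84, adjusted p = 0.021). MAF1 fell by less (log2 fold change -0.69 ± 0.22).

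**Figure D1:**
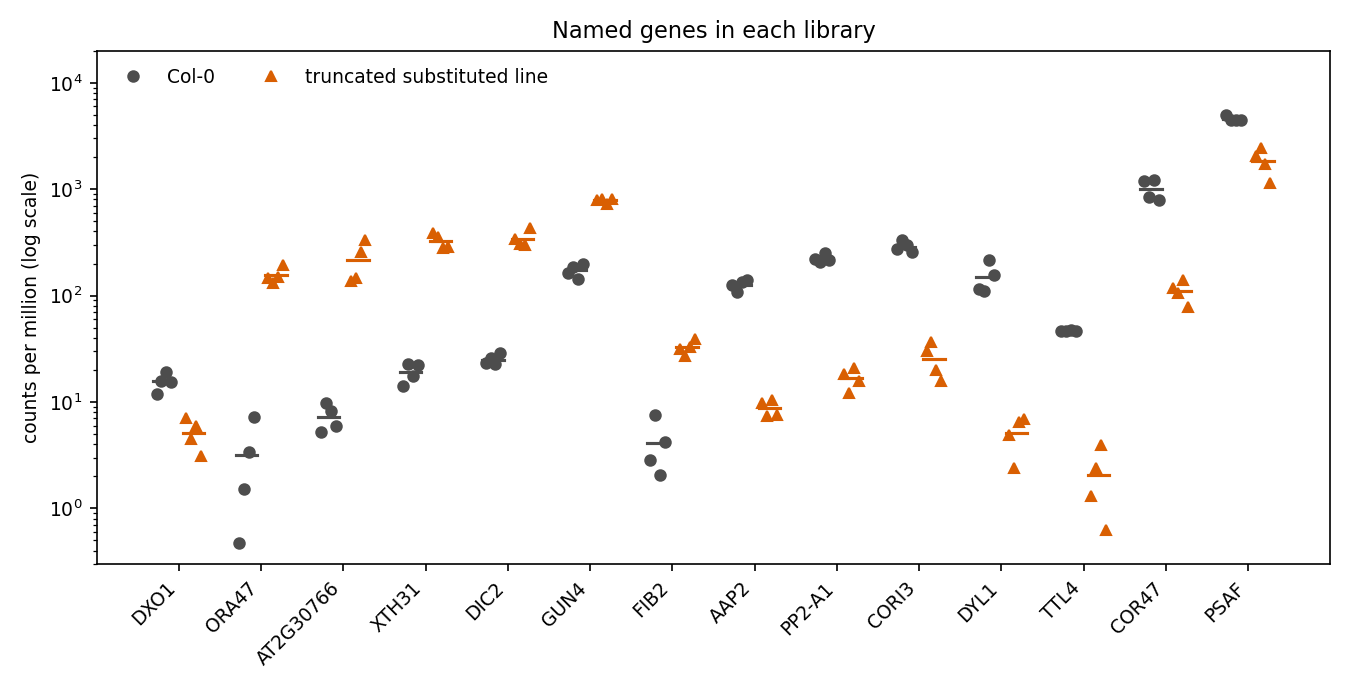
Level of 14 named genes in each of the 4 Col-0 libraries (circles) and the 4 libraries of the truncated substituted line (triangles), in CPM on a log axis; the short lines are group means. No gene shown has overlapping groups, which was a condition of choice for the genes named by size of change. TTL4 lies between 46.4 and 47.0 in every Col-0 library.

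Genes of the cytosolic ribosome rose together. Of 143 annotated cytosolic ribosomal protein genes, 122 passed the filter on low counts. Of these, 112 were called higher and 1 lower, against 17.6% and 10.7% of all tested genes, and their median log2 fold change was 1.36. Summed over all 143 genes the level was 10967, 14039, 9010.3 and 14042 CPM in the Col-0 libraries and 25748, 27165, 31114 and 38723 CPM in those of the line. The sums did not overlap, and replicate 4 held the highest. Without that library 105 members were called higher, and with the length trend removed 103 were, with a median of 1.00. The members are short, with a median exon length of 931.5 bases.

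Log2 fold changes within this list ranged from -0.57 to 2.87. XW6 (AT1G58380), a small-subunit protein gene of the S5 family, measured 8.51, 5.29, 5.45 and 13.1 CPM in Col-0 and 55.9, 47.6, 58.3 and 82.4 CPM in the line (log2 fold change 2.87 ± 0.26). AT1G70600, a large-subunit protein gene, measured 107, 119, 87.9 and 118 CPM and 596, 639, 686 and 724 CPM (log2 fold change 2.61 ± 0.14, adjusted p = 2.8e-13). AT1G15250, of the zinc-binding ribosomal protein family, rose by 2.76. The member called lower, EMB3136 (-0.57, adjusted p = 0.045), has an annotation that also lists the chloroplast stroma, so it may not belong among cytosolic proteins. It lost its call in 8 alternatives, among them the fits without Col-0 replicate 1, 2 or 4 or without replicate 1, 3 or 4 of the line. Near-identical copies encode most ribosomal proteins, so reads may be split between copies. Side by side, the median log2 fold change of the 122 genes against the same Col-0 libraries was 1.24 in dxo1-2, 1.1 in the truncated active line, 0.00 in the full-length substituted line and -0.34 in the full-length active line. Tested directly, 109 members were higher in the truncated substituted than in the full-length substituted line, where 17.6% of all genes were, and 0 of 122 differed from dxo1-2 at an adjusted p under 0.05 in edgeR, with 4 higher and 0 lower at an unadjusted p under 0.05.

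Factors that make ribosomes moved in the same direction in part. Of 30 listed nucleolar and rRNA processing factors 25 were tested, 8 were called higher and 0 lower (0 also at an unadjusted p under 0.05 in edgeR, and 0 in DESeq2), and the median was 0.82. That is 32% higher and 0% lower, against 17.6% and 10.7% of all tested genes. FIB2, a fibrillarin that methylates rRNA, measured 2.84, 7.56, 2.04 and 4.18 CPM in Col-0 and 31.7, 26.8, 33.1 and 38.7 CPM in the line (log2 fold change 2.99 ± 0.29). CBF5, the dyskerin homologue that makes pseudouridine in rRNA, measured 17.97, 22.7, 20.4 and 36.4 CPM and 98.97, 101, 92.9 and 93.6 CPM (log2 fold change 1.99 ± 0.19). Both separated the groups fully. FIB1 (1.52), the bystin-like ENP1 (1.7), RID2 (1.38), the 60S maturation factor REIL2 (0.85), AT5G27120 of the NOP56-like family (2.91) and the Nop53 protein AT2G40430 (1.25) were the others called. Nucleolin 1, NUC1, had a log2 fold change of -0.1 (adjusted p = 0.777). With only genes of at least 10 counts in every library, where few of these low genes were tested, 2 were called.

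The 250 bases before the annotated gene start were searched on both strands for motifs known from ribosomal protein genes. The telo-box AAACCCT was in 22.1% of the promoters of tested ribosomal protein genes (27 of 122) and in 24% of those of the nucleolar factors (6 of 25), against 6.04% of all tested genes with a promoter sequence. Site II elements, TGGGCC or TGGGCT, were in 69.7% (85 of 122) and 64% (16 of 25), against 23.9% of all. Over all genes called higher the shares were 7.38% and 27.2%, and over all called lower they were 4.43% and 17.6%.
A match to these letters is a description of the sequence and not of bound protein.

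The RNA decay genes that were called were all lower. Of 18 listed decay and cap methylation factors 14 were tested, 0 were called higher (0 at an unadjusted p in edgeR and 0 in DESeq2) and 4 lower, with a median of -0.43. That is 0% higher and 28.6% lower, against 17.6% and 10.7% of all tested genes, and 10 members did not pass the test. The number lower was 0 with at least 10 counts in every library, where fewer members were tested, and 2 without Col-0 replicate 1, without Col-0 replicate 3 or without replicate 4 of the line. SOV, an RNase II/R family exonuclease, measured 30.7, 23.4, 27.9 and 33.4 CPM in Col-0 and 11.4, 8.93, 6.92 and 4.37 CPM in the line (log2 fold change -1.83 ± 0.32, adjusted p = 6.5e-05). The decapping enzyme DCP2 (-1.28), the RNA-binding protein LARP1A (-1.02) and the decapping factor DCP5 (-0.48) were the others, and DCP2 lost its call without Col-0 replicate 1 or 3 or without replicate 3 or 4 of the line. The 5′ to 3′ exonuclease XRN4 did not pass the test (-1.02, adjusted p = 0.13). Of 16 small RNA silencing genes 5 were tested, 1 was higher and 1 lower, 20% each way against 17.6% and 10.7% of all tested genes. AGO1, the main slicer of the microRNA pathway, measured 39.3, 34.03, 38.2 and 41.2 CPM and 20.7, 22.6, 14.3 and 5.62 CPM (log2 fold change -1.22 ± 0.33). Its lowest value was in replicate 4, and it was not tested with at least 10 counts in every library. SE, the zinc-finger protein of microRNA processing, rose by 0.68 on the log2 scale and lost that call in 11 alternatives, among them those without Col-0 replicate 1, 2 or 3 or without replicate 1, 2 or 3 of the line.

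Most nuclear photosystem genes fell, while few enzymes and regulators of chlorophyll synthesis were called. Of 37 photosystem and Rubisco genes, all tested, 26 were lower and 2 higher (70.3% and 5.41%, against 10.7% and 17.6% of all tested genes), with a median of -0.57. Their summed level was 298203, 304961, 269453 and 314638 CPM in Col-0 and 214764, 205380.0, 203211 and 215781 CPM in the line, with no overlap. PSBP1, of the oxygen-evolving complex of photosystem II, measured 9072, 9394, 8296 and 9275 CPM in Col-0 and 4877, 4697, 4357 and 3770.2 CPM in the line (log2 fold change -1.03 ± 0.12). The photosystem I subunits PSAF (-1.32), PSAD1 (-1.06) and PSAG (-1.01) fell by similar amounts. The Rubisco small subunit gene RBCS1B rose, from 904, 1205, 559 and 1051 to 1950.4, 2348, 1777 and 1604 CPM, while RBCS3B had a log2 fold change of -0.46, and reads may be shared between these close copies. LHCB4.3 (0.56) was also called higher, and lost the call without replicate 1 of the line or with the length trend removed, which leaves 1 member higher. Of the 15 genes of chlorophyll synthesis and its GLK regulators 3 were higher and 0 lower in edgeR (1 at an unadjusted p under 0.05, and 1 in DESeq2), with a median of 0.19, a share of 20% higher against 17.6% of all. In this list 5 were higher without replicate 4 or with the length trend removed, and the number lower was 1 with the length trend removed or with at least 10 counts in every library and 2 with only the 8 compared libraries fitted. GUN4, which activates magnesium chelatase, measured 163, 185, 144 and 198 CPM and 788, 809, 733 and 814 CPM (log2 fold change 2.19 ± 0.17, adjusted p = 1.8e-10). The transcription factor GLK2 (1.14) and the cyclase subunit CRD1 (0.94) were the others.

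Transcripts of the chloroplast genome were less clear, and how well a count of polyadenylated ends measures organelle transcripts was not tested. Of 133 genes 80 were tested, 9 were higher and 1 lower, and their median was 0.28. These shares, 11.2% and 1.25%, lie below the 17.6% and 10.7% of all tested genes. The number called higher was 0 without Col-0 replicate 3, 5 without Col-0 replicate 2 and 2 without Col-0 replicate 4. It was 5, 3 and 4 without replicates 2, 3 and 4 of the line, and 14 with only the 8 compared libraries fitted. The number lower ran from 0 to 5. ATCG00065 (1.59), ATCG00700 (1.4) and ATCG00190 (1.2) had the largest rises among the members called, and ATCG00470 (-0.7) was the member lower, and each of the 4 lost its call without Col-0 replicate 3. ATCG00190 had 2.00 without Col-0 replicate 1. Of 152 mitochondrial genes 6 were tested and 2 were higher, 33.3% against 17.6% of all tested genes. They were ATMG01380 (1.57) and ATMG01360 (1.34), the latter losing its call in 6 alternatives, among them those without Col-0 replicate 1, 2 or 4 or without replicate 1 or 3 of the line. The summed level of all 133 chloroplast genes was 56560.4, 48922, 43606 and 49004 CPM in Col-0 and 39966, 51268, 53184 and 51911 CPM in the line, and the groups overlapped.

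Ethylene-response and zinc-finger factors of the wound and stress response rose strongly. Of 11 listed factors 10 were tested, 9 were called higher and 0 lower in edgeR (0 lower at an unadjusted p and in DESeq2), with a median log2 fold change of 2.84. That is 90% higher, against 17.6% of all tested genes, and 9 were called higher in every fit that left out a library. Their summed level was 121, 175, 165 and 219 CPM in Col-0 and 1096, 955, 1044 and 1558 CPM in the line. The lowest sum of the line was more than 2-fold above the highest of Col-0. ERF4, an ERF repressor, measured 41.1, 46.9, 45.7 and 45.99 CPM in Col-0 and 378, 322, 317 and 549 CPM in the line (log2 fold change 3.12 ± 0.29). ERF109, also called RRTF1, measured 1.89, 6.81, 9.54 and 0.597 CPM and 36.5, 26.8, 40.5 and 51.2 CPM (log2 fold change 3.1 ± 0.54). ERF11 (3.61), ZAT12 (3.26), ERF6 (2.58), ERF5 (2.35), ERF104 (2.15) and ZAT10 (1.87) rose as well, and ORA59 did not pass the test (0.07). Several of these genes passed the low-count filter through the line, where they are high. Restricted to genes with at least 10 counts in every library, 4 were called.

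Some of these factors also differed from the related lines. Tested directly, 3 of the 10 factors were higher than in dxo1-2, where 0.324% of all genes were, and 5 were higher than in the truncated active line, where 1.45% were. ORA47 was above dxo1-2 by 3.13 on the log2 scale (adjusted p = 3.4e-05) and above the truncated active line by 1.46 (adjusted p = 0.018). ERF109 was above both, by 2.77 and 3.1 (adjusted p = 0.0043 and 0.0019). ERF5 was above dxo1-2 by 1.42 (adjusted p = 0.0077). ERF6 (1.33), ERF11 (1.39) and ERF4 (0.99) were above the truncated active line. ERF109 measured 5.68, 3.997, 5.98 and 6.76 CPM in dxo1-2, 0.998, 1.32, 4.41 and 12.7 CPM in the truncated active line and 0, 1.91, 1.67 and 0 CPM in the full-length substituted line, all of them in the range of Col-0 except the highest truncated active and the 2 empty full-length substituted libraries.

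**Figure D2:**
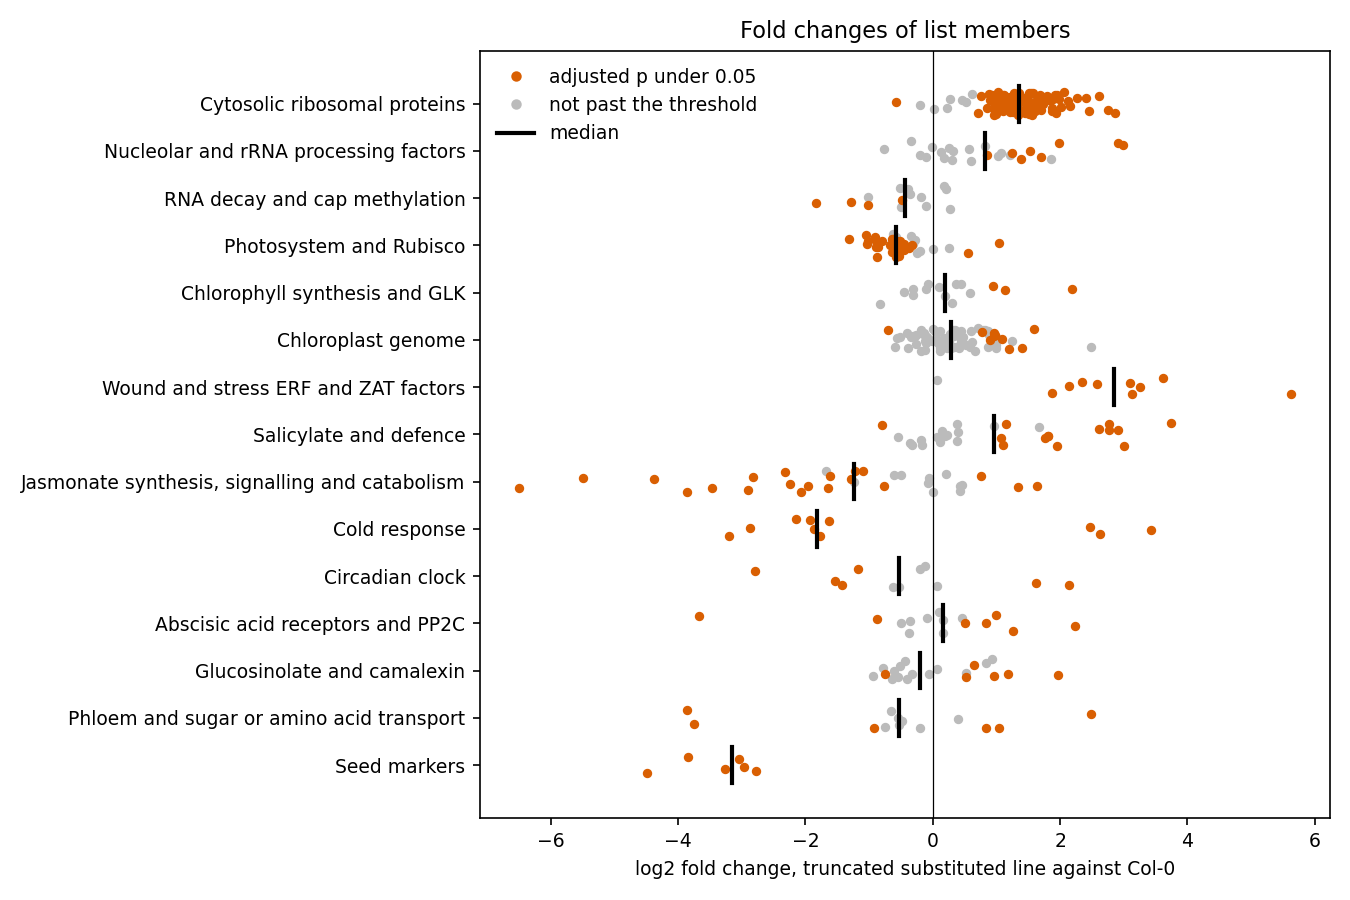
Log2 fold change of each tested member of 15 gene lists, truncated substituted line against Col-0; filled orange points passed the test, grey points did not, and the black bar is the list median. Ribosomal protein genes centre on 1.36 and wound factors on 2.84, while seed markers centre on -3.15 and cold genes split into 3 high and 7 low members.

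Jasmonate genes, in contrast to the wound factors, mostly fell. Jasmonate is made from linolenic acid in the chloroplast and peroxisome, is joined to isoleucine to become active, and acts through COI1, the JAZ repressors and the transcription factor MYC2. Of 34 listed genes 31 were tested, 17 were lower and 3 higher (54.8% and 9.68%, against 10.7% and 17.6% of all tested genes), and the median was -1.24. With at least 10 counts in every library, where fewer members were tested, 10 were lower. Summed levels were 4138, 5430.4, 4881 and 4295 CPM in Col-0 and 1601, 1645, 1989.9 and 2547 CPM in the line, without overlap. In the synthesis branch, the lipoxygenases LOX2 (-2.33) and LOX3 (-2.82), the allene oxide synthase AOS (-0.77), the allene oxide cyclases AOC1, AOC2 and AOC3, and OPR3 (-1.61) all fell. AOC1 measured 454, 633, 591 and 473 CPM in Col-0 and 43.1, 56.2, 79.6 and 112 CPM in the line (log2 fold change -2.89 ± 0.3, adjusted p = 3.4e-08), and its neighbours on chromosome 3, AOC2 and AOC3, had -1.65 and -1.28. The conjugating enzyme JAR1 (-1.95), the hydrolase ILL6 (-2.07) and the methyltransferase JMT (-1.1) fell too.

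CYP94B3, which hydroxylates the active hormone, measured 9.93, 16.6, 12.9 and 10.8 CPM in Col-0 and 0.8798, 0, 0 and 0 CPM in the line, a ratio of 56.3 (95% counting interval 15.1 to 473) on 80 counts against 2. The 2 counts of the line were in its replicate 1. Of the downstream genes, the coronatine-induced CORI3 measured 272, 330.5, 296 and 256 CPM and 30.4, 36.6, 19.8 and 15.6 CPM (log2 fold change -3.46 ± 0.25), and the storage protein VSP2 measured 7.09, 35.5, 15.7 and 16.1 CPM and 3.08, 5.06, 3.46 and 3.12 CPM (log2 fold change -2.24 ± 0.7). CORI3 separated the groups widely and VSP2 narrowly. The defensin PDF1.2 measured 24.1, 103, 27.9 and 44.8 CPM in Col-0 and 2.64, 2.68, 1.48 and 7.49 CPM in the line (log2 fold change -3.86 ± 0.73), PDF1.2b (-4.37) fell with it, and PDF1.2c had a ratio of 128 (95% counting interval 22.4 to 5114) on 91 counts in Col-0 against 1 in the line, in its replicate 1. Col-0 replicate 2 was highest in all 3 of these near-identical genes, and without it PDF1.2 had -3.25 and PDF1.2b -3.30.

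On the signalling side JAZ3 fell (-1.22), JAZ1 rose (1.63) and COI1 did not pass the test (0.47). MYC2 measured 53.9, 62.01, 73.6 and 46.6 CPM in Col-0 and 96.3, 113, 103 and 84.3 CPM in the line (log2 fold change 0.76 ± 0.19, adjusted p = 0.0038). MYC2 was also higher than in dxo1-2 (log2 difference 1.04, adjusted p = 0.0051) and than in the truncated active line (0.75, adjusted p = 0.033). JAZ7 measured 14.7, 10.6, 19.8 and 8.96 CPM in Col-0 and 9.24, 14.9, 39.1 and 78.04 CPM in the line, which overlap. Its call (1.34) was lost in 7 alternatives, among them the fits without Col-0 replicate 1, 2 or 4 or without replicate 3 or 4 of the line, and it was 0.61 without replicate 4 and 0.71 with the length trend removed. OPR3 stood above the truncated active line by 1.56 on the log2 scale (adjusted p = 0.00041).

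Salicylate and defence genes rose in part. Of 32 listed 29 were tested, 13 were higher and 1 lower, with a median of 0.97. These shares, 44.8% and 3.45%, stand against 17.6% and 10.7% of all tested genes. The summed level was 609.7, 686, 608 and 624 CPM in Col-0 and 1557, 1369, 1359 and 1304 CPM in the line. No sum of the line came near a Col-0 sum. PR1, a marker of the salicylate response, measured 4.26, 6.05, 3.41 and 6.57 CPM in Col-0 and 25.5, 19.9, 41.5 and 54.3 CPM in the line (log2 fold change 2.77 ± 0.59, adjusted p = 0.00071). WRKY54, a WRKY transcription factor of this response, measured 24.6, 18.9, 19.8 and 14.3 CPM and 129.8, 109.8, 108 and 132 CPM (log2 fold change 2.61 ± 0.18, adjusted p = 3.1e-11). WRKY38 (3.74), the NPR1-interacting NIMIN1 (3.00), WRKY46 (2.9), WRKY40 (2.76), WRKY53 (1.95), WRKY33 (1.81), WRKY70 (1.76), NDR1 (1.81), CBP60G (1.15), PR2 (1.1) and the lipase-like PAD4 (1.07) rose too. WRKY38 rests on 3 counts in Col-0, a ratio of 14.7 (interval 4.797 to 73.1). NPR1, the coactivator that senses salicylate, was the member that fell (-0.79, adjusted p = 0.0083). The synthase ICS1 (0.38) and PR5 (0.38) did not pass the test. With only genes of at least 10 counts in every library, 6 were called higher.

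Some defence markers were lower than in dxo1-2 and the truncated active line. PR1 measured 326, 556, 163 and 109 CPM in dxo1-2 and 237, 102, 253 and 481 CPM in the truncated active line. The truncated substituted line was below them by -3.06 and -2.95 on the log2 scale (adjusted p = 0.00069 and 0.00096), and its highest library was below the lowest of either. PR2 was below dxo1-2 by -1.39 (adjusted p = 0.0079) and below the truncated active line by -1.27 (adjusted p = 0.013). PR5 was below dxo1-2 by -1.35 (adjusted p = 0.0029). In all, 3 of 29 members were lower than in dxo1-2 and 0 higher in edgeR (3 higher at an unadjusted p under 0.05), where 0.471% and 0.324% of all genes were. WRKY40 went the other way against the truncated active line (log2 difference 1.24, adjusted p = 0.019).

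**Figure D3:**
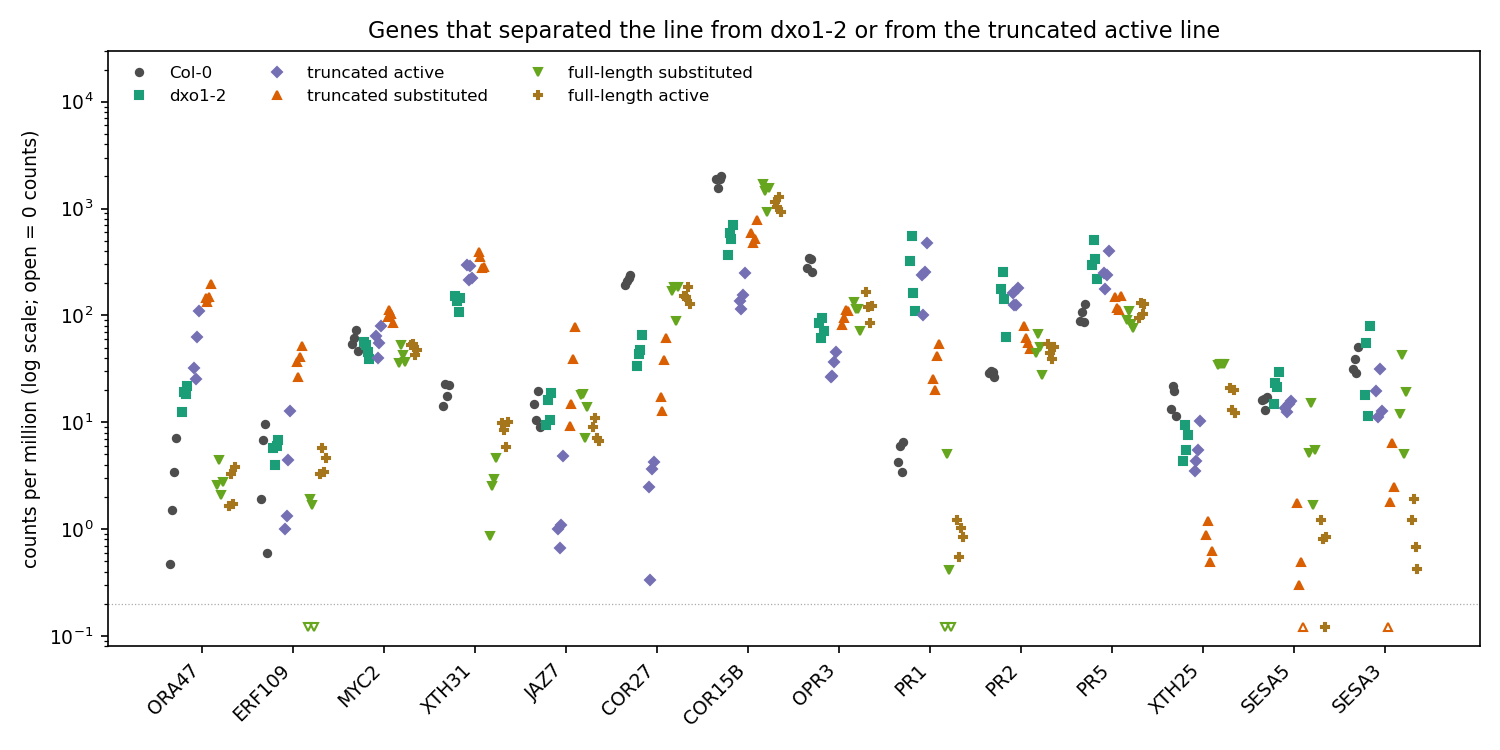
Level of 14 genes in all 24 libraries by genotype, in CPM on a log axis; symbols below the dotted line mark libraries with 0 counts. ORA47 and ERF109 are highest in the truncated substituted line, PR1 lies between Col-0 and the 2 lines dxo1-2 and truncated active, and XTH25 and SESA5 are at most 1.76 CPM in the truncated substituted line.

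The cold genes split by role. The C-repeat binding factors CBF1, CBF2 and CBF3, which stand next to each other on chromosome 4 and switch on cold-regulated genes through the CCGAC core, all rose, and the 7 cold-regulated genes on the list all fell. All 10 listed genes were tested, and the count was 3 higher and 7 lower in every fit that left out a library. These shares, 30% and 70%, stand against 17.6% and 10.7% of all tested genes. CBF2 measured 1.42, 2.27, 9.54 and 4.18 CPM in Col-0 and 58.5, 36.9, 26.2 and 63.1 CPM in the line (log2 fold change 3.44 ± 0.49), CBF1 had 2.62 and CBF3 2.47. CBF2 had 4.12 without Col-0 replicate 3, and with at least 10 counts in every library the CBF genes were not tested. COR47, a dehydrin, measured 1199, 839, 1214 and 787 CPM in Col-0 and 118, 105, 139.9 and 78.7 CPM in the line (log2 fold change -3.19 ± 0.26, adjusted p = 8.6e-10). COR78, also known as RD29A, measured 339, 234, 336 and 209.6 CPM and 40.03, 40.8, 39.6 and 31.8 CPM (log2 fold change -2.87 ± 0.41). The groups were apart in each, and KIN1 (-2.14), ERD10 (-1.93), COR15A (-1.87), KIN2 (-1.76) and COR15B (-1.63) fell by less. KIN1 and KIN2 are close copies. COR15B was above the truncated active line by 1.86 on the log2 scale (adjusted p = 0.00017), and KIN2 by 1.43 (adjusted p = 0.0041).

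The promoter of COR78 is shown because it holds 3 CCGAC cores, in capitals (RefSeq annotation of TAIR10.1, chr5:21240467-21240716, plus strand, 250 bases before the gene start). They begin 140, 90 and 33 bases before the start.
COR78 promoter: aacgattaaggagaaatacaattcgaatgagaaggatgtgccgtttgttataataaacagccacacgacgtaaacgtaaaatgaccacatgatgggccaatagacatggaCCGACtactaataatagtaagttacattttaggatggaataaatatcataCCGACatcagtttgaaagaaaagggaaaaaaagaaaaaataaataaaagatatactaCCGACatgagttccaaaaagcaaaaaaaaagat
The core CCGAC was in 2 of the 10 promoters of the list and in 13.5% of those of all tested genes.

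Clock genes were called in both directions. Of 13 clock genes 11 were tested, 4 were lower and 2 higher, which is 36.4% and 18.2% against 10.7% and 17.6% of all tested genes. PRR5, PRR7, GI, ELF3 and LUX did not pass the test, with log2 fold changes from -0.62 to 0.06. COR27, a night-time repressor of clock genes, measured 191, 212, 226 and 239 CPM in Col-0 and 17.2, 12.8, 38.1 and 61.8 CPM in the line (log2 fold change -2.78 ± 0.36, adjusted p = 9.2e-07). TOC1, a core evening component, measured 88.9, 89.2, 129 and 100.3 CPM and 34.3, 39.9, 43.01 and 33.1 CPM (log2 fold change -1.43 ± 0.17), and ELF4 (-1.54) and AT4G33980 (-1.17) fell too. All 4 separated the groups, and 2 of them were tested and lower with at least 10 counts in every library. ELF4 had -2.15 with the length trend removed. The morning factors CCA1 (2.14, adjusted p = 0.046) and LHY (1.62, adjusted p = 0.042) were the members called higher. They rest on at most 6 counts per Col-0 library, and each call was lost in 6 alternatives, for CCA1 without Col-0 replicate 3 or 4 or replicate 1 or 3 of the line and for LHY without Col-0 replicate 1, 2 or 4 or replicate 1, 2 or 3 of the line. Fits in which a gene had no value are not counted among those 6. The number called higher was 0 without replicate 2 of the line and 0 with only the 8 compared libraries fitted, so CCA1 was not called there either. Without Col-0 replicate 1, CCA1 had 2.81. COR27 was less reduced than in the truncated active line (log2 difference 3.62, adjusted p = 0.00025), as were AT4G33980 (2.72) and ELF4 (1.44). The evening element AAAATATCT was in 4 of the 11 promoters (36.4%) and in 2.71% of those of all tested genes, and the G-box CACGTG was in 4 of 11 against 7.71%.

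Members of smaller groups were called in both directions. Of 18 abscisic acid receptors and clade A phosphatases 15 were tested, and 5 were higher and 2 lower (33.3% and 13.3%, against 17.6% and 10.7% of all tested genes). All 5 that rose were receptors: PYR1 measured 16.1, 18.9, 16.4 and 15.5 CPM in Col-0 and 73.9, 62.5, 84.04 and 95.5 CPM in the line (log2 fold change 2.24 ± 0.23), and PYL1 (1.26), PYL8 (1.00), PYL4 (0.84) and PYL7 (0.51) rose by less. Both that fell were phosphatases, HAI1 (-3.67) and PP2CA (-0.88), and PP2CA lost its call without replicate 3 of the line. HAI1 had 0 to 4 counts in a library of the line and -5.25 without its replicate 1. The number higher was 3 without Col-0 replicate 2, without replicate 3 of the line or with the length trend removed. Of 21 glucosinolate and camalexin genes 20 were tested and 5 were higher and 1 lower, which is 25% and 5% against 17.6% and 10.7% of all. SOT17, a sulfotransferase that completes glucosinolates, measured 14.2, 15.9, 14.99 and 11.9 CPM and 58.9, 64.3, 58.3 and 39.96 CPM (log2 fold change 1.97 ± 0.25), and the regulators MYB29 (1.19) and MYB28 (0.97) rose. The number higher was 3 without Col-0 replicate 1 or 4 and also when low genes were not filtered out. The number lower was 0 without Col-0 replicate 1, 2 or 3 or replicate 3 of the line, 3 with the length trend removed or without replicate 2 of the line, and up to 4 in the other alternatives, and the fall of CYP83B1 (-0.75) lost its call in 6 alternatives, among them those without Col-0 replicate 1, 2 or 3 or without replicate 3 or 4 of the line. MYB28 lost its call without Col-0 replicate 4 or without replicate 1 or 2 of the line.

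In the phloem and transport list, 13 of 15 genes were tested and 3 were higher and 3 lower. That is 23.1% each way, against 17.6% and 10.7% of all tested genes. The neighbouring lectin genes PP2-A1 and PP2-A2 on chromosome 4 went opposite ways. PP2-A1 measured 221, 209, 249 and 214 CPM in Col-0 and 18.5, 12.2, 20.8 and 15.6 CPM in the line (log2 fold change -3.74 ± 0.22, adjusted p = 2.1e-12). PP2-A2 measured 0, 1.51, 2.04 and 1.19 CPM and 5.28, 8.63, 5.44 and 5.62 CPM (log2 fold change 2.48 ± 0.68). The 2 genes lie on the same strand, chr4:10773804-10775942 and chr4:10776591-10777588, and the strand used in counting is not stated. The sucrose exporters SWEET11 (0.83) and SWEET12 (1.03) rose and the amino acid permease AAP1 fell (-0.93), while the companion cell sucrose carrier SUC2 did not pass the test (-0.75, adjusted p = 0.063). Without replicate 2 of the line, or with the length trend removed, 5 members were lower. Of 8 listed iron genes 3 were tested, too few to describe iron status from the list. The list does not hold AT1G47400 or AT2G30766, which both rose strongly. Their log2 fold changes were 5.72 ± 0.75 and 4.92 ± 0.45, and whether these rises reflect iron status was not tested. Of the 3 tested genes on the list, the ferritin FER3 rose (0.82). In edgeR 0 were lower (1 at an unadjusted p under 0.05), 1 was lower without Col-0 replicate 3 or in DESeq2, and 2 with the length trend removed.

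Markers of plant parts were examined beside these groups. The seed markers, storage proteins and oleosin that mark embryos, were all 6 lower, against 10.7% of all tested genes, with a median of -3.15. Their summed level was 113, 147, 105 and 166 CPM in Col-0 and 8.798, 6.55, 33.6 and 6.87 CPM in the line. All sums of the line were below those of Col-0, with replicate 3 highest. CRC, a cruciferin, measured 30.7, 41.6, 26.6 and 50.2 CPM and 4.399, 2.38, 12.4 and 3.12 CPM (log2 fold change -2.78 ± 0.55). SESA5, a seed storage albumin, measured 16.1, 16.6, 12.9 and 17.3 CPM and 1.76, 0.298, 0.494 and 0 CPM (log2 fold change -4.48 ± 0.58), and it had -5.53 without replicate 1 of the line. SESA4, among the 10 largest falls of all genes, measured 9.46, 19.7, 11.6 and 22.1 CPM and 0, 0.298, 2.47 and 1.87 CPM (log2 fold change -3.87 ± 0.65), SESA3 had -3.85 and the oleosin OLEO1 -3.27. The SESA genes are close copies. Without replicate 3 of the line SESA4 had -4.62, SESA3 -4.69 and OLEO1 -3.88. The median of the 6 against Col-0 was 0.14 in dxo1-2, -0.82 in the truncated active line, -1.08 in the full-length substituted line and -3.69 in the full-length active line. Tested directly, 5 of 6 were lower in the truncated substituted line than in dxo1-2, where 0.471% of all genes were. Against the truncated active line 3 of 6 were lower, where 0.662% of all genes were.

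Of the 4 leaf markers LHCB1.3 (-0.58) and RBCS1A (-0.54) fell, RBCS1A losing its call without replicate 3 or 4 of the line. Leaf marker sums were 70061, 74325, 60804 and 76658 CPM in Col-0 and 53397, 50693, 46535 and 50366 CPM in the line. Root markers summed to at most 3.02 CPM and flower markers to at most 3.78 CPM in any of the 8 libraries, and 0 of these 11 genes passed the filter. Of 5 markers of senescing leaves 3 were tested and 0 were called in edgeR, also at an unadjusted p under 0.05. SAG13 had a log2 fold change of 0.34 against Col-0 and was below dxo1-2 by -3.88 (adjusted p = 0.014). The part of seed material in the other results was not tested.

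**Figure D4:**
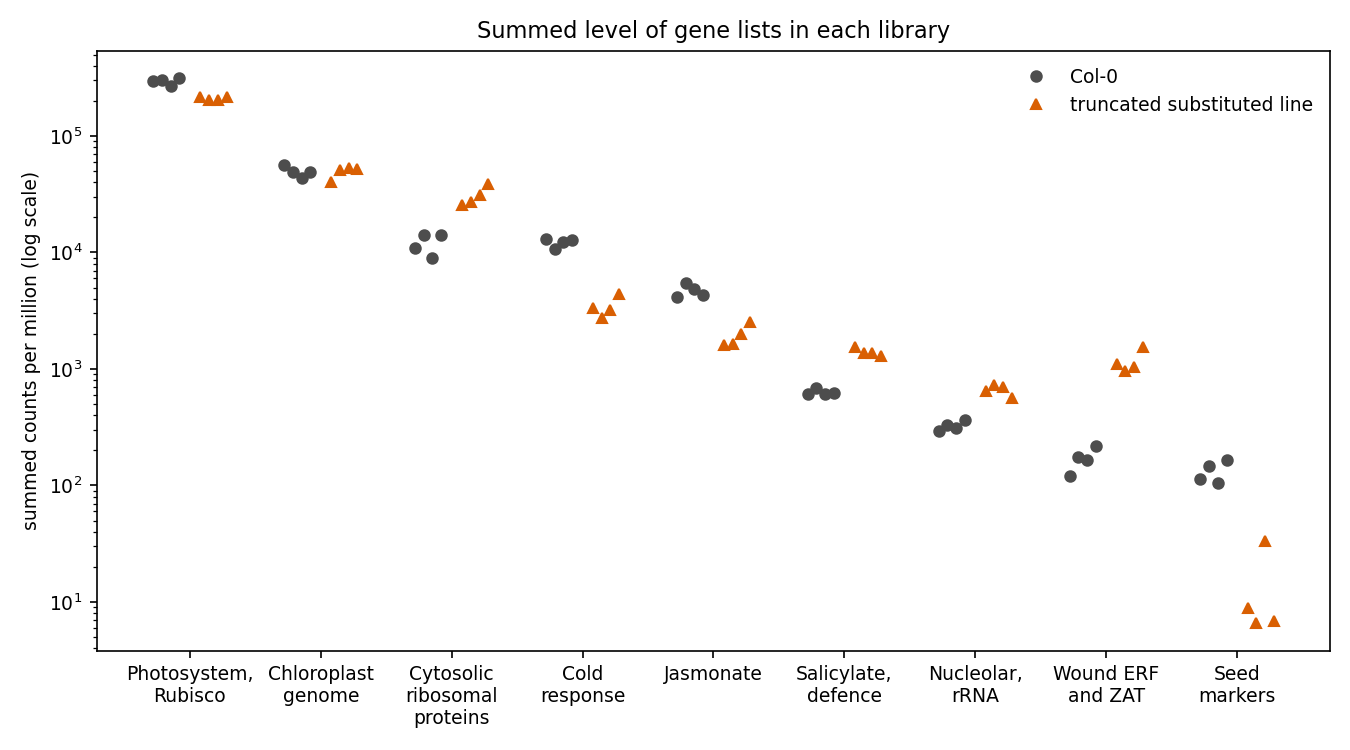
Summed level of 9 gene lists in each library, in CPM on a log axis, for Col-0 (circles) and the truncated substituted line (triangles). The sums of the groups do not overlap except for the chloroplast genome, and replicate 3 of the line stands above the other 3 for seed markers.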

How the data were processed

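Whole-seedling RNA was measured by 3′ RNA-seq, with 1 library per sample. The authors deposited raw counts, whole numbers for 37184 loci in each library, of which 36899 are in the reference annotation and 0 lines name no gene. STAR 2.7.8a, DESeq2 and TAIR10 are named in the submitters' processing notes; the counting tool, annotation, use of strand and any collapsing of molecular identifiers are not given in the sources used here. Without known collapsing, intervals cover counting error only.

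All 24 libraries were fitted together (6 genotypes, 4 libraries each) with edgeR 4.0.16 in R 4.3.3: filterByExpr by group, TMM normalization, quasi-likelihood F-test, Benjamini-Hochberg adjustment over all genes tested, and a threshold of 0.05. The other lines were compared as contrasts of the same fit. CPM, log2 fold changes and standard errors were computed from the deposited counts. Comparisons with Col-0 share its libraries. The fitting code was tested on simulated data with known changes. Samples were grouped by the labels' titles, and the replicate numbers were not taken as pairs.

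The text names DXO1, the 10 largest called changes each way (groups not overlapping, and 20 or more counts on average where the gene is higher), the 4 largest each way with at least 100 CPM, and up to 3 called members of each list each way; other members and small families stand beside them. Members and lists were chosen with earlier results of these data known, so the lists were only counted, not tested. Names, lengths, gene positions and sequences come from RefSeq's annotation of TAIR10.1, matched by locus; 99.4% of tested genes had a length. Alternatives were size factors, DESeq2 1.42.0, no filter, at least 10 counts in every library, the 8 compared libraries alone, a replicate block, no organelle genes, a length trend removed (lowess, span 0.3), and leaving out each library.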

Additional observations from a re-analysis of the deposited data

Results flagged for a closer look

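In each group of 4 libraries the named genes and list sums were screened for 1 library far from the other 3 by Dixon's ratio test. Of 224 groups screened, 17 were flagged, and chance flags about 1 in 20.

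In 5 of these the other 3 libraries held 0 counts. These were SADHU3-2 at 0.473 CPM in Col-0 replicate 1, AT2G21220 at 0.681 CPM in Col-0 replicate 3, AT5G47610 at 0.756 CPM in Col-0 replicate 2, and PDF1.2c at 0.440 CPM and CYP94B3 at 0.880 CPM in replicate 1 of the truncated substituted line.

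Col-0 replicate 1 was high for PSAF (4978.5 CPM against 4438 to 4499 in the other 3), NIMIN1 (4.73 CPM) and MYB29 (17.0 CPM). Col-0 replicate 2 was low for CBF1 at 3.78 CPM. Col-0 replicate 3 was low for ATCG00700 at 1.36 CPM and for the root marker sum at 1.36 CPM. Replicate 2 of the line was high for PP2-A2 (8.63 CPM) and AAP1 (116 CPM). Replicate 4 of the line was high for ERF11 (71.8 CPM against 34.1 to 37.8) and low for COR78 (31.8 CPM). Replicate 3 of the line was high for the seed marker sum, at 33.6 CPM against 6.55 to 8.80. Replicate 1 of the line was low for the chloroplast genome sum, at 39966 CPM against 51268 to 53185. In none of PSAF, NIMIN1, MYB29, CBF1, PP2-A2, AAP1, ERF11 or COR78 did the flagged library reach the range of the other group.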

How the results depend on the processing

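The number of genes called was 3849 and lay between 2682 and 4267 under the alternatives, and between 3178 and 3561 when 1 library was left out. Only the number called higher moved by over 1.5 times, to 1543 with at least 10 counts in every library, where fewer genes were tested. With the length trend removed 4267 genes were called and 50.8% of them were higher, against 62.1%. The log2 fold change of DXO1 stayed between -1.75 and -1.43 and past the threshold; it has no value with at least 10 counts in every library. Of 1351 values of the named genes other than DXO1 under an alternative, 1272 stayed past the threshold in the same direction, 79 did not, and 0 reversed. Of 536 list counts 99 moved by over 1.5 times; the cause was not tested.

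With the replicate number as a block 4091 genes were called. Between same-numbered libraries of Col-0 and the line, deviations from the group means correlated at 0.07, -0.12, 0.10 and 0.34. The numbers were not taken as pairs, and this check left out the other lines. Replicate 4 had the lowest slope of level on length in Col-0 (-0.04), dxo1-2 (-0.55) and the truncated active line (-0.38). It was also lowest in the full-length substituted (-0.21) and truncated substituted line (-0.65), but not in the full-length active line (0.39). Whether replicate 4 shared a batch was not tested.

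Depth limits low genes: a library of the line holds 5 to 16 counts of DXO1. All results compare 4 libraries of 1 construct with 4 of Col-0. The labels do not say how many transformants these represent, and whether others would give the same values cannot be told from these data. Gene length and the transgenic line move with the groups.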

Other observations

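A few gene families outside the lists are given here because members of them stood out, and they were chosen after their values were seen. The copper-zinc superoxide dismutases, which remove superoxide, rose. CSD2, the chloroplast form, measured 73.3, 80.9, 60.6 and 75.9 CPM in Col-0 and 891, 847, 832 and 843 CPM in the truncated substituted line (log2 fold change 3.55 ± 0.18, adjusted p = 2.6e-13 in edgeR). The groups were far apart and the 4 libraries of the line nearly equal. CSD1, the cytosolic form, rose by 2.06 and their copper chaperone CCS by 2.47 on the log2 scale, while the peroxisomal CSD3 had -0.52 (adjusted p = 0.082). The early light-induced proteins ELIP1, from 3.78, 5.29, 4.77 and 2.39 to 55.9, 61.6, 49.4 and 58.1 CPM, and ELIP2, with a ratio of 29.1 (95% counting interval 9.74 to 143) on 3 counts in Col-0, rose as well. ELIP1 was also above dxo1-2 (log2 difference 1.07, adjusted p = 0.022).

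Among the HVA22 genes, a family induced by abscisic acid and stress in many plants, those called were lower. HVA22E measured 49.7, 62.8, 56.6 and 68.7 CPM in Col-0 and 3.08, 3.27, 4.45 and 7.49 CPM in the line (log2 fold change -3.76 ± 0.35), and HVA22D (-2.9) and HVA22A (-0.57) fell too, while HVA22C (0.26) and HVA22K (-0.64) did not pass the test. Of the EXORDIUM-like genes, EXL4 (AT5G09440, -3.61), EXL2 (-2.45) and EXL5 (-0.79) fell and EXL3 did not pass the test (-0.31), and EXL4 was below dxo1-2 by -2.04 (adjusted p = 0.0055). Of the BTB and TAZ domain genes, BT5 measured 7.09, 6.05, 9.54 and 17.3 CPM in Col-0 and 110.4, 122, 117 and 135 CPM in the line (log2 fold change 3.58 ± 0.27), BT2 (1.32) and BT1 (1.24) rose, and BT4 did not pass the test (-0.85). BT5 was above dxo1-2 by 1.33 (adjusted p = 0.0029).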
